A study of Mus musculus with 18 samples.

Results

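CD8 T cells from mice kept for 12 weeks on a high fat diet (HFD) were compared with those of mice kept for 12 weeks on a normal diet (ND), across all expressed genes. The members are the 6 HFD and the 6 ND libraries, taken by their diet labels, out of 18 libraries in the series. All mice were wild type (labelled WT), the tissue was spleen and the cells were labelled CD8 and freshly isolated. Poly-A RNA was sequenced and reads were counted per gene. The composition of the diets and the age and sex of the animals are not given in the labels, and neither is whether each library came from its own mouse, so p-values here reflect only how far these samples vary, some of which may be technical.

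CD8 T cells are the lymphocytes that recognise peptides on MHC class I molecules and kill infected or transformed cells. In an unchallenged spleen most of them are naive or resting memory cells that recirculate with the help of integrins and chemokine receptors. A high fat diet raises circulating fatty acids and insulin and is widely used in mice as a model of obesity. Levels are given below as CPM, normalised counts scaled to a common library size. In a bulk sample, fewer cells of a type and less RNA per cell cannot be told apart.

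The libraries fall into 2 sets by the numbers in their file labels. Set 1 holds numbers 3 and 4, with 2 libraries per diet, and set 2 holds numbers 5, 8, 9 and 10, with 4 per diet. The labels do not say what the numbers mark, and the set was a factor in every fit unless stated. Total counts ran from 11947339 to 16398340 per library. HFD 4 stood apart: it had 17570 genes with a count against 18963 to 20155 in the other libraries, and on the first principal component (18.8% of the variance) it lay at 49.95 against -11.0 to 1.69. Results are therefore given with and without HFD 4. Cd8a, a chain of the CD8 co-receptor, lay at 1398 to 1594 CPM in ND and 1365 to 1579 in HFD. Of 14 genes of CD8 T cell identity 1, Cd5, was called, and 0 without HFD 4. The defining B cell gene Pax5 and the macrophage gene C1qa were too low to be tested.

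The diet difference was small per gene and spread over many genes. A gene was called at an adjusted p under 0.05 in edgeR's quasi-likelihood test. Of 13286 genes tested, 467 were called (3.51%), 242 higher (1.82%) and 225 lower (1.69%) on high fat diet, while 2399 reached that threshold before adjustment. Called genes differed by a median of 0.28 (log2) in size, 66 of them reached 1.5-fold, and 16 of the 18 that reached 2-fold were higher. In 54 called genes all HFD libraries lay above all ND libraries and in 84 all lay below, against 94 (0.708%) and 137 (1.03%) of all genes tested. Without HFD 4, edgeR called 411 of 13397 genes (3.07%), 216 higher (1.61%) and 195 lower (1.46%), of which 332 were also in the 467. Leaving out ND 1 gave 260 calls, ND 2 285, ND 3 264, ND 5 304, ND 6 263 and HFD 6 276, and 166 genes were called in all 12 fits without 1 library. With no factor for the library set 199 genes were called, and with the summed level of B cell markers as a covariate 20; that sum consists almost wholly of Ighm, itself a called gene, and is described at the end. Many calls lay near the threshold: of the genes named below, Id3, Tgfbr2 and Cbx2 kept their call in 5 of the 12 fits that leave out a library, Irf4, Jak1, Tnf, Tcf7, S100a8, Slamf7 and Klrd1 in 4, Ptpn22, Cd5, Myh9, Cybb and Odc1 in 3, and Ngp in 2.

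The direction of the difference was shared by the 2 library sets, which have no library in common. Of the 187 genes called within set 2 alone, 173 (92.5%) had the same sign in set 1, 85 of 90 higher and 88 of 97 lower, against 63.6% of all genes tested. Their median size was 0.39 in set 2, where they were chosen, and 0.21 in set 1. With the set 2 fit made without HFD 4, 171 of 187 had the same sign. No gene was called for a difference between the sets in the diet effect in edgeR's interaction test. At an unadjusted p under 0.05 there were 454 of 13286, and DESeq2 called 4. Set 1 has 2 libraries per diet and gave 5 calls alone, so this test could miss real differences. Its count of 0 therefore does not show that the diet effect is the same in both sets.

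**Figure D1:**
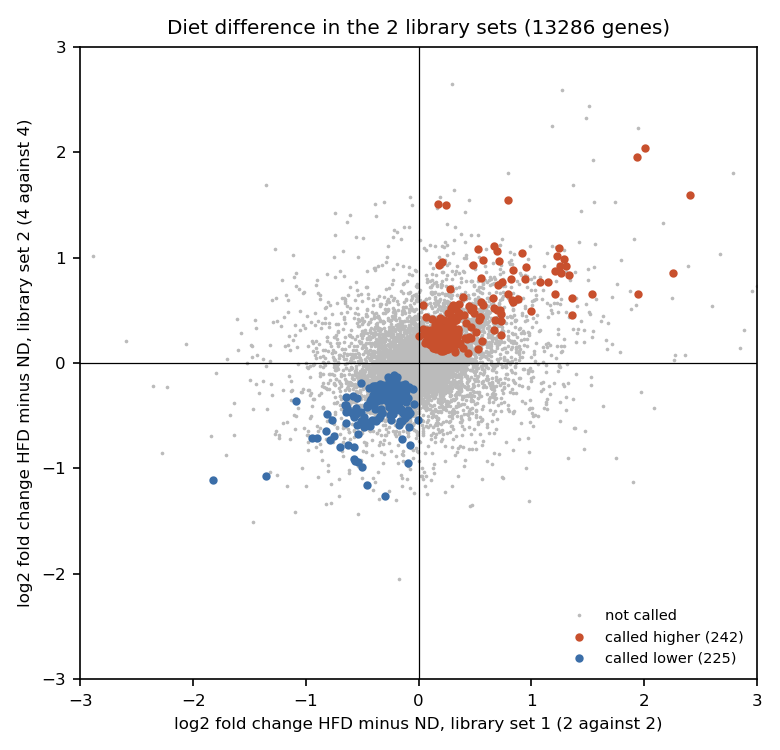
Log2 fold change (HFD minus ND) of each tested gene within library set 1 (horizontal) and within library set 2 (vertical), with the 242 genes called higher and the 225 called lower in colour; 6 uncalled genes lie beyond the axes. The called genes sit in the lower left and upper right corners, and their place was fixed in part by the calls, which used both sets.

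Called genes differed from the rest in how long and how divided they are. Over the 11045 protein-coding genes tested, the median span on the genome (GENCODE M21 annotation, introns included) was 23.5 kb. It was 52.5 kb in the 229 coding genes called higher and 11.7 kb in the 214 called lower. Genes under 20 kb were 44.7% of all, 23.1% of those called higher and 78.0% of those called lower. Exon number went the same way, with a median of 9 over all genes, 13 in genes called higher and 5 in genes called lower. Among genes at 20 to 100 CPM, 42.6% of all, 20.7% of those higher and 75.8% of those lower spanned under 20 kb.

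The same shift was seen over all coding genes tested, with the called genes included. The median log2 fold change was -0.03 in the 2657 coding genes under 10 kb, 0.01 in the 3221 of 20 to 50 kb and 0.07 in the 1261 of 100 kb or more. In that longest group 69 genes (5.47%) were called higher and 2 (0.159%) lower, while under 10 kb 32 (1.20%) were higher and 95 (3.58%) lower. Without HFD 4 the medians were -0.05, 0.01 and 0.07. Each library was also given 1 value, the median of its genes of 100 kb or more minus that of its genes under 10 kb, each gene taken relative to its ND mean. In set 1 this value was 0.12 and 0.13 in ND and 0.20 and 0.22 in HFD. In set 2 it was -0.09, -0.09, -0.05 and -0.02 in ND and -0.01 (HFD 4), 0.02, 0.05 and 0.13 in HFD. The diets did not overlap within either set, but the 2 ND libraries of set 1 lay above 3 of the 4 HFD libraries of set 2, and ND 1 above all 4, so the value moved with the library set as well as with the diet. In an exact permutation test, two-sided, with the diets exchanged within sets, the mean difference of 0.10 had p = 0.00476, the smallest that the 420 assignments allow, and the same p without HFD 4 (210 assignments). This measure was chosen after the data were seen.

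**Figure D2:**
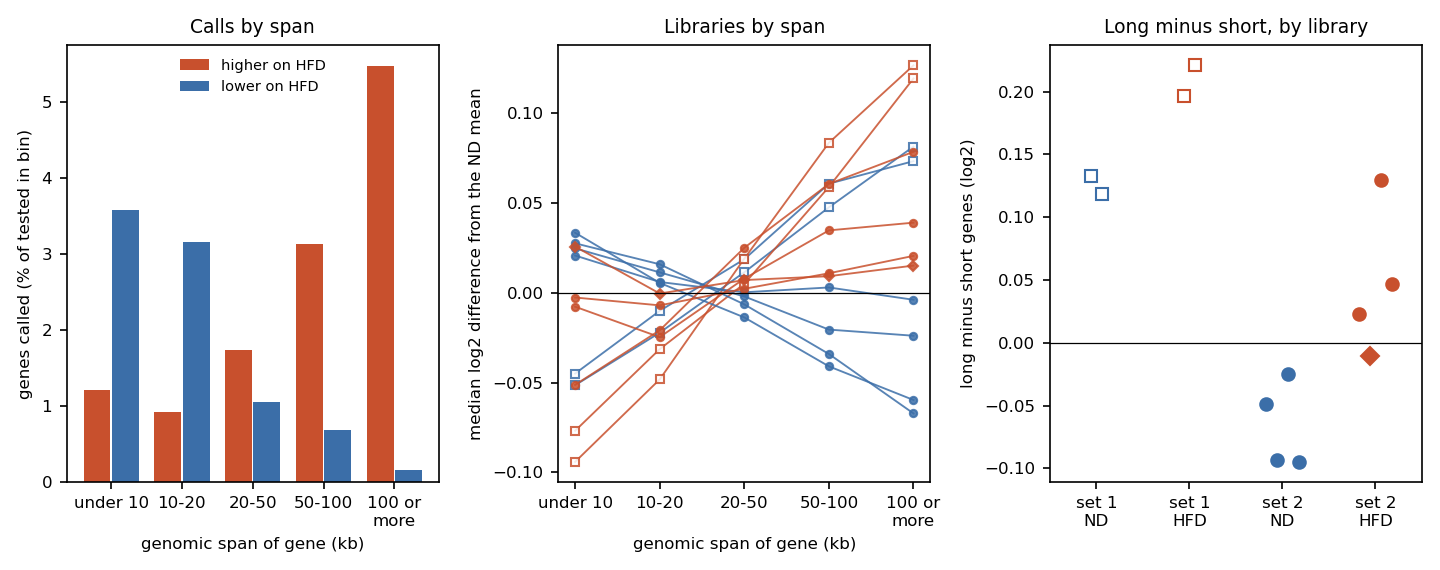
Left: share of tested protein-coding genes called higher or lower, by genomic span (kb). Middle: median log2 difference of each library from the ND mean in each span group, ND in blue and HFD in red. Right: the difference between the longest and the shortest span group in each library. Open squares are library set 1, filled symbols set 2, and the diamond is HFD 4. Lower calls were 3.58% of genes under 10 kb and higher calls 5.47% of genes of 100 kb or more.

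Because span moved with the diet, each library's smooth trend with span was taken out in a further fit, chosen after the data were seen. It called 380 genes, 200 higher and 180 lower, and 304 of them were among the 467. Of 140 called genes followed through every alternative, 17 were not called in it. Those of them described in the paragraphs below are marked as lost with span taken out. Coding genes under 20 kb then made up 45.7% of those higher and 56.4% of those lower. With the long minus short value as a covariate instead, 138 genes were called, 49 of them among the 467. Genes lost in that fit are not marked below, and most of the genes described lost their call in it. Among these were Itgb1, Itgae, Prdm1, Tec, Srsf3, Irf1, Nfkbid and Cbx8. Cd44, Ccl5, Lpin1, Tubb4b and Tra2a were among those that kept it.

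Integrin chains and Cd44 were among the genes that rose. Of 30 tested genes of integrins and adhesion, 6 rose and none fell (Cd44, Itga1, Itgae, Itgb1, Itgb2 and Selplg), with a median log2 fold change of 0.10 against 0.01 over all genes and 20 of 30 fold changes above 0. Without HFD 4, 7 rose, with span taken out 6 rose and 1 fell, and with no library set factor 3 rose. Itgb1 (ENSMUSG00000025809; chromosome 8, 128685654 to 128733200, GRCm38), the beta 1 integrin chain, ranged from 155 to 189 CPM in ND (median 167) and from 208 to 306 in HFD (median 232). Every HFD library was above every ND library, and the log2 fold change was 0.49 ± 0.07 (SE; adjusted p = 0.000468). Cd44 (ENSMUSG00000005087; chromosome 2, 102811141 to 102901665), the hyaluronan receptor that is raised on memory and effector T cells, ranged from 56.0 to 66.5 CPM in ND (median 61.3) and from 71.2 to 87.5 in HFD (median 77.3). The diets again did not overlap, and the change was 0.36 ± 0.06 (adjusted p = 0.0014). Itgae, the alpha E chain (CD103) that pairs with beta 7 integrin and binds E-cadherin, rose by 0.26 (adjusted p = 0.00536), and Itgb2, the beta chain of LFA-1, by 0.17 (adjusted p = 0.00934). Itga1, the collagen-binding alpha 1 chain, rose by 1.07 from a low level (adjusted p = 0.0309, and 0.0496 without HFD 4).

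Of 56 actin and myosin genes 8 rose and none fell, 45 of the 56 fold changes were above 0, and 5 rose without HFD 4, 4 with span taken out, 4 with the erythroid marker covariate and 1 with no library set factor. Myo1f, an unconventional myosin of leukocytes, ranged from 112 to 150 CPM in ND (median 127) and from 152 to 188 in HFD (median 168), with no overlap, a change of 0.40 ± 0.07 and an adjusted p of 0.00271. Tln1, which encodes talin, the activator of integrins, rose by 0.20 (adjusted p = 0.00958). The actin-nucleation factor gene Wasf2 rose by 0.19 (adjusted p = 0.0142). Flna, the actin cross-linker filamin A, rose by 0.17 (adjusted p = 0.0322), as did Myh9, the non-muscle myosin heavy chain, by 0.15 (adjusted p = 0.0343). Myh9 was lost with span taken out, and Flna without HFD 4 (adjusted p = 0.0558).

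Of 19 tubulin genes 5 fell and none rose, with a median of -0.06 and 7 fold changes above 0; 4 fell without HFD 4, 4 with span taken out and 3 with the erythroid marker covariate. Tubb4b (ENSMUSG00000036752; chromosome 2, 25222160 to 25224702), a beta tubulin, ranged from 145 to 176 CPM in ND (median 164) and from 89.8 to 122.7 in HFD (median 108). Tuba4a, an alpha tubulin, went from a median of 173 to 122. Neither gene's diets overlapped, and the changes were -0.59 ± 0.06 and -0.48 ± 0.06 (adjusted p = 0.000143 for both), among the smallest adjusted p-values of the comparison. Tuba1a, Tuba1b and Tuba1c, the other called tubulins, are near-identical in sequence, and how the authors' counting split their reads is not known.

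Of 16 semaphorin and plexin genes 3 rose and none fell. Plxnb2, a semaphorin receptor, went from 0.912 to 3.37 CPM in ND (median 1.46) to 3.17 to 5.82 in HFD (median 3.77), a change of 1.27 ± 0.26 (adjusted p = 0.00857), with the diets overlapping slightly. Nrp1, a semaphorin co-receptor, rose by 0.88 (adjusted p = 0.0273), and Sema4d, a semaphorin of T cells, by 0.20 (adjusted p = 0.00523). Among 31 homing receptor genes 1 rose and 1 fell, near the shares of 1.82% and 1.69% over all genes. Their median was 0.16 against 0.01 over all genes, and 22 fold changes were above 0. DESeq2 called 5, and 14 had an unadjusted p under 0.05, against 2399 of all 13286 genes. Gpr15, a receptor for homing to the colon, rose by 0.73 (adjusted p = 0.00769), and Ccr9, the receptor for homing to the small intestine, fell by 0.28 (adjusted p = 0.0308). The Rac activator gene Prex1 rose by 0.20 (adjusted p = 0.00387) and Arhgef3, which encodes a GTPase exchange factor, by 0.19 (adjusted p = 0.00879). They were the 2 called of 51 genes of small GTPases and their regulators, near the share of 3.51% over all genes. Arhgef3 was lost with span taken out.

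**Figure D3:**
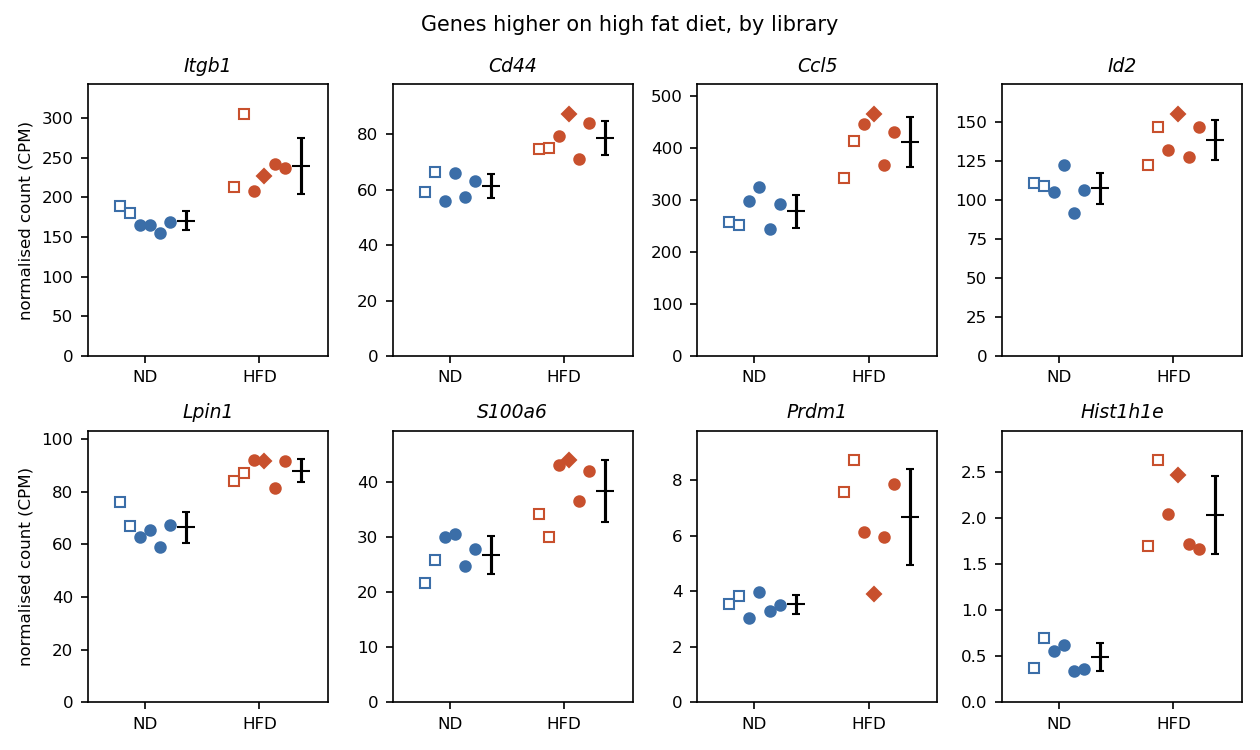
Normalised counts (CPM) of 8 genes called higher on high fat diet in each ND (blue) and HFD (red) library. Open squares are library set 1, filled symbols set 2, the diamond is HFD 4, and the bar to the right is the mean and SD over 6 libraries. For Itgb1 the HFD libraries sit between 208 and 306 and the ND libraries between 155 and 189.

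Ccl5 (ENSMUSG00000035042; chromosome 11, 83525778 to 83530518), the chemokine RANTES that memory CD8 T cells hold ready, ranged from 244 to 324 CPM in ND (median 275) and from 342 to 466 in HFD (median 422). The diets did not overlap, and the change was 0.56 ± 0.07 (adjusted p = 0.000603). S100a6, a calcium-binding protein of activated cells, ranged from 21.7 to 30.7 CPM in ND (median 26.9) and from 30.1 to 44.1 in HFD (median 39.3). These overlapped at their edges, with a change of 0.51 ± 0.07 (adjusted p = 0.000345). Of 26 cytotoxic and cytokine genes Ccl5 was the only one called higher and Tnf, the inflammatory cytokine, the only one called lower, at -0.74 (adjusted p = 0.0433). In this list 22 of 26 fold changes were above 0, with a median of 0.16 against 0.01 over all genes. DESeq2 called 7, and 17 had an unadjusted p under 0.05, against 2399 of all 13286 genes. Tnf was lost without HFD 4 (adjusted p = 0.0836) and with span taken out. Of 30 killer cell receptor genes Klrd1, which encodes CD94, rose by 0.20 and Slamf7, a self-ligand receptor, by 0.33 (adjusted p = 0.036 and 0.0305), Klrd1 not without HFD 4 (adjusted p = 0.0687).

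Of 45 transcription factors of lymphocyte differentiation 7 rose and 4 fell, with a median of 0.07; 6 and 3 were called with span taken out and 6 and 3 without HFD 4. Id2, which favours effector cells, ranged from 91.7 to 122 CPM in ND (median 107) and from 122 to 155 in HFD (median 139), with no overlap and a change of 0.37 ± 0.07 (adjusted p = 0.00485). Its relative Id3, linked to naive and long-lived memory cells, fell by 0.50 (adjusted p = 0.04), also without overlap. Prdm1, which encodes the effector regulator Blimp-1, went from 3.03 to 4.00 CPM in ND (median 3.54) to 3.90 to 8.74 in HFD (median 6.85). Only HFD 4, the lowest of the diet, fell within the ND range, and the change was 0.90 ± 0.17 (adjusted p = 0.00485). Prdm1 is also a marker of plasma cells, whose list is described at the end. Zeb2, another effector regulator, rose by 1.00 (adjusted p = 0.0268) and Runx2 by 0.64 (adjusted p = 0.0116). Ikzf3, the Ikaros family factor Aiolos, rose by 0.24 with no overlap (adjusted p = 0.00227). Tcf7, which encodes TCF-1 of naive and memory cells, rose too, by 0.15 (adjusted p = 0.0423, and 0.0608 without HFD 4), and Ets1, a factor of resting T cells, by 0.15 (adjusted p = 0.0244, lost with span taken out). The effector regulator Bhlhe40 rose by 0.96 (adjusted p = 0.0191), and Irf4, induced by T cell receptor signals, by 0.58 (adjusted p = 0.036, and 0.0536 without HFD 4).

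Of 32 cytokine receptor genes 5 rose and none fell (Il10ra, Il18r1, Il4ra, Il6ra and Tgfbr2), and 22 fold changes were above 0. The count was the same without HFD 4, 5 higher and 1 lower with span taken out, 9 higher and 1 lower with DESeq2, and 3 higher with no library set factor and with the erythroid marker covariate. Il10ra, the interleukin 10 receptor chain, ranged from 41.4 to 66.8 CPM in ND (median 54.5) and from 61.0 to 81.5 in HFD (median 75.5), a change of 0.44 ± 0.09 with overlap (adjusted p = 0.0155). Il18r1 rose by 0.23, Il6ra by 0.18, Il4ra by 0.17 and Tgfbr2 by 0.19 (adjusted p = 0.0188, 0.0177, 0.0162 and 0.0268), the last lost with span taken out. The TNF receptor 2 gene Tnfrsf1b rose by 0.24 (adjusted p = 0.0103). Of 20 inhibitory receptor genes 4 rose and none fell, with a median of 0.32; 2 rose without HFD 4 and with no library set factor, 2 rose and 1 fell with the erythroid marker covariate, and DESeq2 called 8 higher. They were Nrp1, Nt5e (the ecto-nucleotidase CD73; 0.35, adjusted p = 0.00928), Cd5 (a brake on T cell receptor signals; 0.16, adjusted p = 0.0397) and Sirpa. Sirpa is better known from myeloid cells; it rose by 1.15 (adjusted p = 0.0479), and was lost without HFD 4 (adjusted p = 0.0662) and with span taken out, and in 11 of the 12 fits that leave out a library. Cd5 was also lost without HFD 4 (adjusted p = 0.0678).

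In T cell receptor signalling 3 of 49 genes rose and none fell. Tec, a kinase of the pathway, ranged from 31.3 to 40.6 CPM in ND (median 36.8) and from 42.2 to 54.5 in HFD (median 47.5), with no overlap and a change of 0.39 ± 0.07 (adjusted p = 0.00422). Ptpn22, a phosphatase that restrains the receptor, rose by 0.20 (adjusted p = 0.0376) and was lost with span taken out and without HFD 4 (adjusted p = 0.0544). Downstream of cytokine receptors, 4 of 26 JAK, STAT and SOCS genes fell and 1 rose; 2 fell and none rose without HFD 4. Cish, a feedback inhibitor induced by STAT5, ranged from 9.46 to 12.7 CPM in ND (median 10.7) and from 4.95 to 9.19 in HFD (median 6.88). The diets did not overlap, and the change was -0.61 ± 0.13 (adjusted p = 0.0105). Socs4, another SOCS family member, fell by 0.30 without overlap (adjusted p = 0.00422). The kinase gene Jak1 rose by 0.15 (adjusted p = 0.0388), but not without HFD 4 (adjusted p = 0.0536) and not with span taken out.

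Lpin1 (ENSMUSG00000020593; chromosome 12, 16535669 to 16610966) encodes lipin 1, the phosphatidate phosphatase of triglyceride synthesis that also acts as a transcriptional coactivator. It ranged from 59.0 to 76.2 CPM in ND (median 66.3) and from 81.5 to 91.9 in HFD (median 89.4), with no overlap and a change of 0.41 ± 0.06 (adjusted p = 0.000196). G0s2, an inhibitor of the triglyceride lipase ATGL, fell by 0.76 (adjusted p = 0.0227). These were the 2 called of 44 lipid droplet and phospholipid genes, near the share of 3.51% over all genes. Of 42 genes of lipid sensing and fatty acid use 3 rose, Ucp2, Acot7 and Acot9, and none fell; Acot9 was lost with span taken out and without HFD 4 (adjusted p = 0.0777), and in 11 of the 12 fits that leave out a library. Without HFD 4 the carnitine carrier gene Slc25a20 was called. Ucp2, a mitochondrial uncoupling protein that fatty acids induce in many tissues, ranged from 517 to 581 CPM in ND (median 540) and from 577 to 662 in HFD (median 630). The ranges touched, and the change was 0.20 ± 0.04 (adjusted p = 0.00895). Acot7, an acyl-CoA thioesterase, rose by 0.38 (adjusted p = 0.014). Smpdl3b, a lipid-modifying phosphodiesterase of the cell surface, rose by 1.09 (adjusted p = 0.00422), and Zdhhc2, a palmitoyltransferase, by 1.04 without overlap (adjusted p = 0.00182).

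No member of the ferroptosis list, which the title of the series points to, or of the 4 other lists described in this paragraph was called. With 3.51% of all genes called, a count of 0 in lists of this size is near the background and is no result about their members. Of 50 tested genes of ferroptosis defence and iron handling 0 were called by edgeR, with a median of 0.00; 5 had an unadjusted p under 0.05, DESeq2 called 1 and the fit with span taken out called 1 higher. Gpx4, the lipid peroxide-reducing enzyme that protects from ferroptosis, ranged from 91.3 to 109 CPM in ND (median 97.6) and from 87.7 to 105 in HFD (median 101), and its change was -0.01 ± 0.05 (adjusted p = 0.946). Of 58 nuclear genes of oxidative phosphorylation 0 were called, 7 had an unadjusted p under 0.05, and DESeq2 called 1. Among 33 proteasome genes 0 were called by edgeR or DESeq2 and 0 had an unadjusted p under 0.05. For 48 MAP kinase and phosphatase genes edgeR called 0 and DESeq2 3, and 10 had an unadjusted p under 0.05. Of 35 cholesterol genes edgeR and DESeq2 called 0, 1 was called lower without HFD 4, and 10 had an unadjusted p under 0.05, against 2399 of all 13286 genes.

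Of 30 BCL2 family and apoptosis genes 4 rose and none fell, 3 without HFD 4 and 3 with span taken out, while their median was 0.02. Pmaip1 and Bbc3, which encode the BH3-only proteins Noxa and Puma, rose by 0.47 and 0.95 (adjusted p = 0.0152 and 0.0415), but Bbc3 was lost in 11 of the 12 fits that leave out a library, such as that without HFD 4 (adjusted p = 0.0667). Casp1, the inflammatory caspase, rose by 0.56 (adjusted p = 0.036), but kept its call in 4 of those 12 fits and not with a replicate block (adjusted p = 0.0644). The glucocorticoid-induced gene Tsc22d3, known as GILZ, ranged from 280 to 436 CPM in ND (median 402) and from 342 to 855 in HFD (median 782). It rose by 0.87 ± 0.19 (adjusted p = 0.0423), and HFD 1 and ND 1 were the lowest libraries of their diets; without HFD 4 its adjusted p was 0.0718, and it was lost in 11 of those 12 fits. Atf6, a sensor of unfolded proteins, ranged from 8.51 to 10.9 CPM in ND (median 9.29) and from 11.7 to 15.6 in HFD (median 13.7), with no overlap and a change of 0.52 ± 0.10 (adjusted p = 0.00422). The chaperone genes Calr and Pdia3, which help load MHC class I molecules, rose by 0.16 and 0.17 (adjusted p = 0.0384 and 0.0351). Each kept its call in 4 of those 12 fits and neither with no library set factor (adjusted p = 0.105 and 0.0873). With Atf6 they were the 3 called of 44 heat shock and unfolded protein genes. The median of that list was -0.002, and 22 of its fold changes were above 0. Of 27 MHC class I genes these 2 were called, with a median of 0.001 and 14 fold changes above 0.

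**Figure D4:**
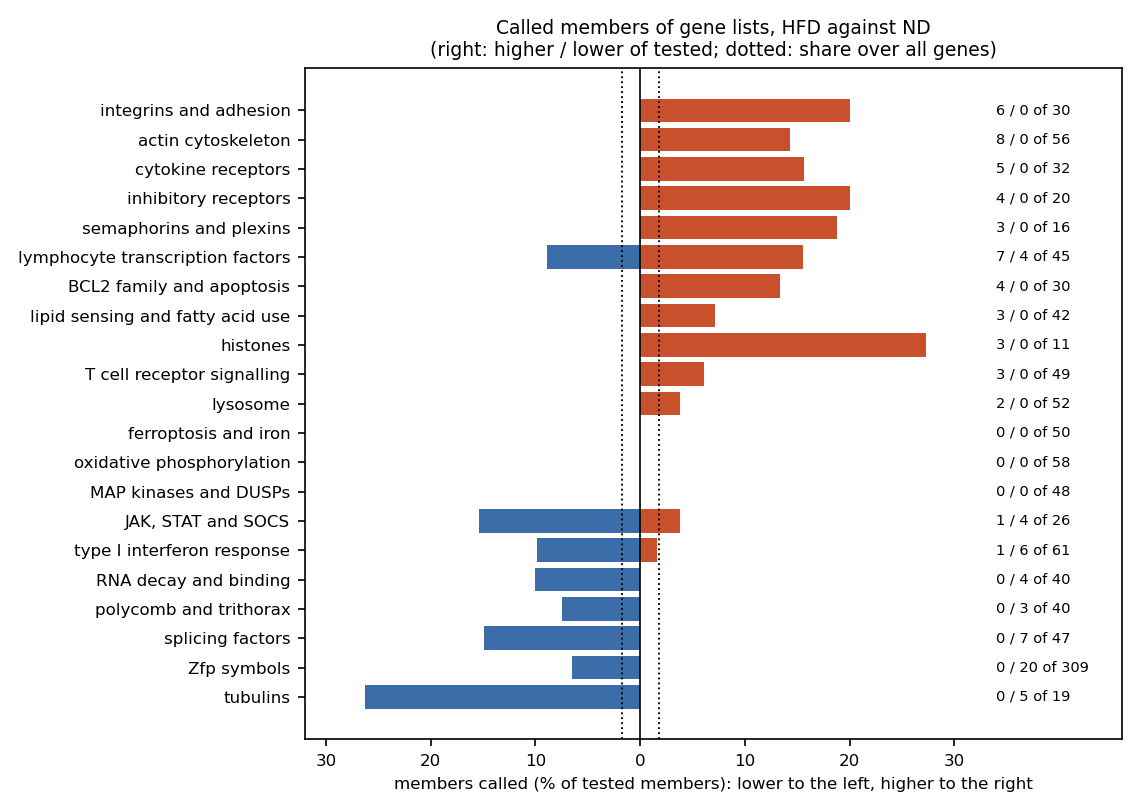
Share of the tested members of each gene list called higher (red, to the right) or lower (blue, to the left) on high fat diet, with the counts at the right edge; dotted lines mark the shares over all 13286 genes, 1.82% and 1.69%. Called members of the adhesion and actin lists were all higher, and those of the splicing factor and tubulin lists all lower.

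Of 47 splicing factors and their kinases 7 fell and none rose, with a median of -0.02 and 19 fold changes above 0; 8 fell without HFD 4, 5 with span taken out and 4 with no library set factor, and DESeq2 called 10 lower and 1 higher. Srsf3 (ENSMUSG00000071172; chromosome 17, 29032628 to 29043373), an SR splicing factor, ranged from 344 to 376 CPM in ND (median 352) and from 263 to 309 in HFD (median 285). Tra2a, an SR-like factor, went from a median of 159 to 127 CPM. Both separated the diets fully, with changes of -0.31 ± 0.05 (adjusted p = 0.000345) and -0.33 ± 0.04 (adjusted p = 0.000196). Clk1, a kinase of SR proteins, fell by 0.34 (adjusted p = 0.014), and the SR factor genes Tra2b and Srsf7 fell by 0.20 and 0.23 (adjusted p = 0.00911 and 0.00962). Outside the list, Rsrp1, an arginine- and serine-rich protein, ranged from 753 to 958 CPM in ND (median 924) and from 578 to 775 in HFD (median 711). Its diets overlapped through ND 2, the lowest of its group, and the change was -0.36 ± 0.05 (adjusted p = 0.000237). Rbm12, an RNA-binding protein gene, fell by 0.53 ± 0.07 with no overlap (adjusted p = 0.000143).

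Of 40 RNA decay and binding genes 4 fell and none rose, 3 without HFD 4 and 6 with span taken out, and the median was -0.03. Rc3h1, which encodes Roquin-1, fell by 0.26 (adjusted p = 0.00659), and Zc3h12a, which encodes the RNase Regnase-1, by 0.28 (adjusted p = 0.0228). Both proteins degrade inflammatory transcripts in T cells. Mex3b, an RNA-binding ubiquitin ligase gene, fell by 0.80 with no overlap (adjusted p = 0.00166).

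Of 40 polycomb and trithorax genes 3 fell and none rose, 2 without HFD 4, 2 with span taken out and 1 with the erythroid marker covariate, with a median of -0.01. Cbx8 (ENSMUSG00000025578; chromosome 11, 119036305 to 119040969), a subunit of polycomb repressive complex 1, ranged from 21.8 to 30.1 CPM in ND (median 25.7) and from 11.9 to 21.3 in HFD (median 13.4). The diets did not overlap, and the change was -0.82 ± 0.12 (adjusted p = 0.000391). Cbx2, another chromobox gene, fell by 0.43 (adjusted p = 0.0300, lost without HFD 4, at 0.0514, and with span taken out). Of 309 genes with a Zfp symbol, most of them zinc finger proteins, 20 fell and none rose. Their median was -0.11 with 80 fold changes above 0, and 12 fell without HFD 4 and 12 with span taken out. Zfp658 ranged from 19.98 to 23.5 CPM in ND (median 21.1) and from 13.1 to 16.6 in HFD (median 14.9), a change of -0.52 ± 0.08 without overlap (adjusted p = 0.000811). Among other chromatin genes the deacetylase gene Sirt1 fell by 0.31 with no overlap (adjusted p = 0.00476), Tet3, a DNA demethylation enzyme gene, fell by 0.18 (adjusted p = 0.0179) and Hdac5, a class II deacetylase gene, rose by 0.24 (adjusted p = 0.0149). Klf10, a TGF-beta-induced repressor, fell by 0.91 ± 0.17 (adjusted p = 0.00769).

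Hist1h1e, a linker histone, ranged from 0.340 to 0.695 CPM in ND (median 0.467) and from 1.67 to 2.63 in HFD (median 1.88), with no overlap and a change of 2.03 ± 0.31 (adjusted p = 0.000468), the largest among the called genes. Hist1h1c, another linker histone, rose by 0.81 (adjusted p = 0.00879). They were 2 of the 3 called of 11 tested histone genes; the third, Hist1h4n, has near-identical copies. Slbp, which encodes the protein that binds the 3' end of histone transcripts, fell by 0.24 without overlap (adjusted p = 0.0155). Histone transcripts mostly lack a poly-A tail, so poly-A selection sets their level in part.

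Of 61 genes of the type I interferon response 6 were lower and 1 higher, the median was -0.12 and only 7 fold changes were above 0; without HFD 4, 5 fell and none rose, with span taken out 4 fell and 1 rose, and DESeq2 called 10 lower and 1 higher. After adjusting for the summed erythroid markers 1 fell, the median was -0.03 and 24 fold changes were above 0, and Irf7 and Irf9 were not called (adjusted p = 0.0524 and 0.0688); what the erythroid level contributes was not tested. Irf7, a transcription factor that amplifies the response, ranged from 112 to 158 CPM in ND (median 129) and from 96.9 to 117 in HFD (median 105), a change of -0.32 ± 0.06 with overlap (adjusted p = 0.00422). Rtp4, an interferon-induced chaperone gene, fell by 0.50 (adjusted p = 0.00189), and Irf9, a subunit of the ISGF3 complex, by 0.25 (adjusted p = 0.00895). Irf1 (ENSMUSG00000018899; chromosome 11, 53770014 to 53778374), a factor induced by interferon gamma, ranged from 252 to 286 CPM in ND (median 272) and from 183 to 231 in HFD (median 213). The diets did not overlap, and the change was -0.37 ± 0.05 (adjusted p = 0.000237). Of 29 NF-kB genes 2 fell and none rose, while the median was 0.05 and 19 fold changes were above 0. The 2 were Nfkbid, a nuclear IkB protein, which fell by 0.46 without overlap (adjusted p = 0.000196), and Bcl10, an adaptor between the T cell receptor and NF-kB, by 0.26 (adjusted p = 0.00993). Nfkbid ranged from 60.8 to 74.6 CPM in ND and from 42.3 to 54.9 in HFD.

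**Figure D5:**
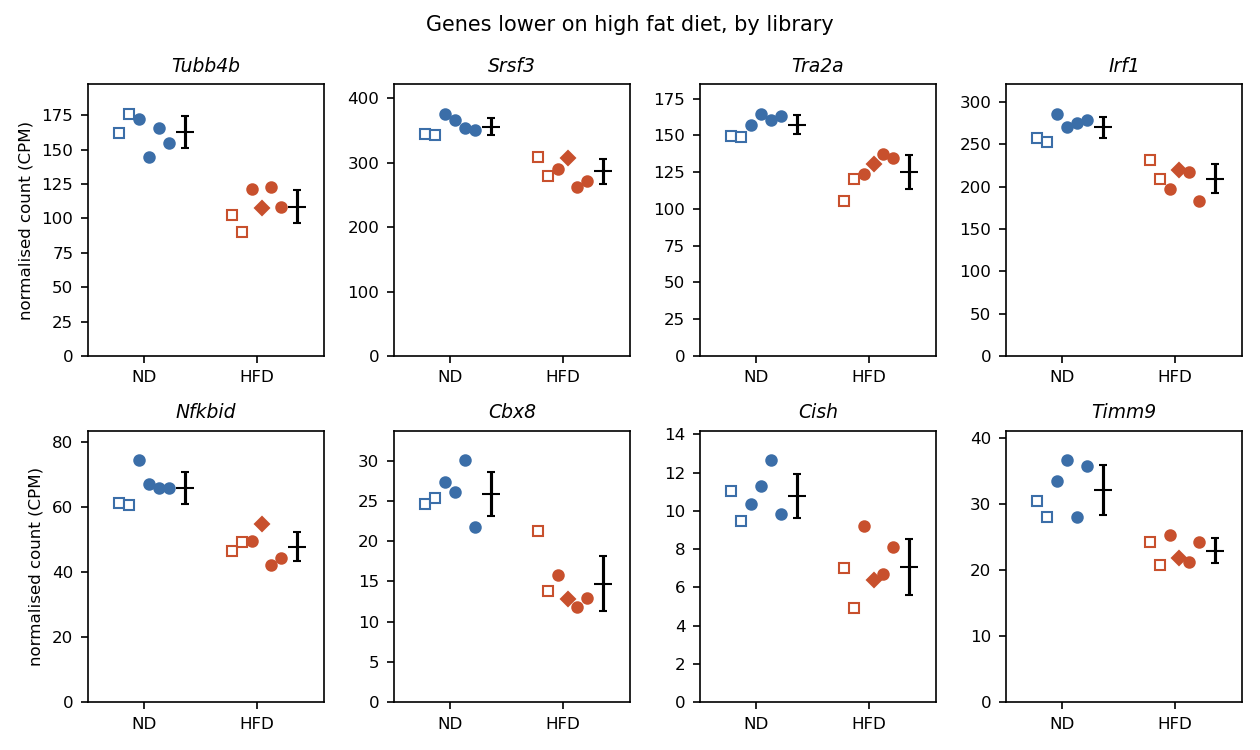
Normalised counts (CPM) of 8 genes called lower on high fat diet in each ND (blue) and HFD (red) library, drawn as in the plot of higher genes (open squares library set 1, filled symbols set 2, diamond HFD 4, bar mean and SD over 6 libraries). In all 8 the highest HFD library lies below the lowest ND library, as for Tubb4b at 122.7 against 145.

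Leaving aside families taken by gene symbol, such as the tubulin and Zfp genes, the lists held 130 of the 467 called genes and 337 were in none of them. The genes in this and the next paragraph are among those 337 and were chosen after their values were seen, except Fcgrt, Racgap1 and Lfng. Selplg, Tgfbr2, Zeb2, Runx2, Slbp, Slc25a20, Zfp658 and the Tuba1 genes, named above, were also chosen after their values were seen. Timm9, a chaperone of mitochondrial import, ranged from 28.0 to 36.7 CPM in ND (median 32.0) and from 20.8 to 25.3 in HFD (median 23.03), a change of -0.48 ± 0.08 without overlap (adjusted p = 0.0014). Ndufab1, the mitochondrial acyl carrier protein, fell by 0.33 (adjusted p = 0.0149), and Pank3, a kinase of coenzyme A synthesis, by 0.29 (adjusted p = 0.00863). Mat2a, which makes S-adenosylmethionine, fell by 0.40 (adjusted p = 0.00496), and Amd1, which uses it for polyamine synthesis, fell by 0.33 (adjusted p = 0.00895). Odc1, the first enzyme of polyamine synthesis, rose by 0.22 (adjusted p = 0.0449), though not without HFD 4 (adjusted p = 0.0966). Slc30a1, a zinc exporter, fell by 0.50 without overlap (adjusted p = 0.00293).

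Further genes outside the lists act at the surface and in sorting. F2r and F2rl1, the protease-activated receptors 1 and 2, rose by 0.29 and 0.25 (adjusted p = 0.00521 and 0.0158). Fcgrt, the neonatal Fc receptor that recycles antibody and albumin, ranged from 64.8 to 76.7 CPM in ND (median 71.6) and from 78.4 to 98.4 in HFD (median 95.4), a change of 0.35 ± 0.05 without overlap (adjusted p = 0.00046). Igf2r, which sorts enzymes to lysosomes, rose by 0.24 (adjusted p = 0.00568), App, the amyloid precursor, by 0.44 (adjusted p = 0.0028), and Piezo1, a mechanosensitive channel, by 0.24 (adjusted p = 0.0155). Racgap1, a GTPase regulator of cell division, rose by 0.33 without overlap (adjusted p = 0.000446). Crk, a signalling adaptor, fell by 0.30 without overlap (adjusted p = 0.000454), and Lfng, the Fringe enzyme that modifies Notch, ranged from 353 to 421 CPM in ND and from 294 to 351 in HFD, a fall of 0.26 (adjusted p = 0.00152). The ribosome assembly genes Ddx55 and Mphosph10 fell by 0.25 each (adjusted p = 0.0116 and 0.0169).

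Some markers of other spleen cells rose. Of 6 tested B cell markers 1 rose, Ighm, the immunoglobulin mu chain, which ranged from 449 to 498 CPM in ND and from 494 to 642 in HFD (0.24, adjusted p = 0.00879); all 6 fold changes were above 0. The summed B cell markers were 488 to 547 CPM in ND and 536 to 689.9 in HFD. Ighm, at a mean of 515 CPM, made up nearly all of this sum and 7 of the 12 listed markers were under 1 CPM; Cd79a, a defining marker, was at most 1.65 CPM in ND and 2.47 in HFD. Of 5 tested plasma cell markers 1 was called, Prdm1, while all 5 fold changes were above 0, with a median of 0.90. DESeq2 called 3 of them, and 2 were called higher without HFD 4. The summed plasma cell markers were 38.7 to 51.8 CPM in ND and 42.0 to 89.9 in HFD, the highest in HFD 4. Of 9 myeloid markers Lyz2 and S100a8 rose, by 0.83 and 1.20 (adjusted p = 0.0155 and 0.0467), while the summed level was 539 to 682 in ND and 459 to 726 in HFD. Most of that sum was Ly6c2 (mean 529.6 CPM), which CD8 T cells also express, and 14 of the 22 listed markers were under 1 CPM. The myeloid and granule genes Cybb and Ngp, which are not in that marker list, rose by 1.00 and 1.09 (adjusted p = 0.0441 and 0.0467). Cybb was lost with span taken out and Ngp without HFD 4 (adjusted p = 0.0678) and with a replicate block (adjusted p = 0.0729). Of 13 dendritic cell markers Itgax rose by 0.55 (adjusted p = 0.0178, and 0.0503 without HFD 4), with sums of 664 to 1573 in ND and 1122 to 2297 in HFD. Summed erythroid markers were 39.3 to 64.9 CPM in ND and 36.6 to 370.2 in HFD, and 0 of the 8 tested were called by edgeR, 6 had an unadjusted p under 0.05 and DESeq2 called 3. No marker was called in the lists of natural killer, CD4, gamma delta, platelet, stromal and mast cells. With 2 to 9 tested members each and 3.51% of all genes called, that is near the background. The 3 tested stromal markers had a median of -0.44, with 1 above 0. With the summed B cell markers as a covariate 20 genes were called, 11 of them among the 467, with the erythroid markers 271, and with the myeloid markers 452; the first and the last of these covariates are in effect the levels of Ighm and Ly6c2. With the erythroid covariate, 88 of the 140 called genes followed through every alternative kept their call. Those that lost it included Id2, Itgb2, Plxnb2, Tnfrsf1b, Ucp2, G0s2, Hist1h1c, Socs4, Bcl10, Lyz2 and Ighm. The part these cells play in the differences was not tested further.

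Some named genes share their place with another gene model, and strand handling is not stated in the labels. Rbm12 overlaps Cpne1 on the same strand, Itga1 overlaps Pelo and Irf9 overlaps Rnf31. Tubb4b lies antisense to Fam166a, Timm9 to Tomm20l, Rtp4 to Masp1 and Zdhhc2 to Cnot7. The overlaps are of whole gene spans, introns included. How reads in the stretches that such genes share were assigned is not known.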

How the data were processed

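CD8 cells of the spleen were analysed in 6 ND and 6 HFD libraries; the third diet group and the FPKM files were not used here. The authors deposited raw counts per gene, with no normalization. Per the submitters' processing notes, the tool was fastp and the builds named are GRCm38 and mm10; which aligner, counter and gene annotation made the counts is not given in the sources used here. Of 56748 gene IDs, 52125 matched GENCODE M21 (GRCm38), which gave symbols and coordinates.

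Counts were tested with edgeR 4.0.16 (R 4.3.3; quasi-likelihood F test, robust, TMM, filterByExpr) with library set and diet as factors, and adjusted by Benjamini-Hochberg over all genes tested. Genes were named by fold change, p, change in CPM (12, 12 and 6 per direction) and up to 4 per list, from 65 lists; only some are given. Members, lists and alternatives were chosen with earlier results of these data known. Alternatives were DESeq2 1.42.0, limma-voom 3.58.1, other normalizations, filters, covariates and sets, and each library left out. No libraries were identical. On simulated counts for HFD against ND (13135 genes), edgeR recovered 60% of 50 genes changed 1.25-fold, 74% at 1.5-fold, 96% at 2-fold and 92% at 3-fold, and 6.40% of its calls were unchanged genes. The simulated counts held no library set difference, no trend with span and no library that stood apart. The 6.40% is therefore not the error rate of the real calls. Promoter windows (RefSeq, 9291 of 13286 tested genes matched, 69.9%) were too incomplete for the motif search, which was not used. PCR copies were not marked.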

Additional observations from a re-analysis of the deposited data

Results flagged for a closer look

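In each diet's 6 libraries, the gap of the highest or lowest library to its neighbour was divided by the range, for the genes followed through the alternatives and for library measures, and a ratio above Dixon's 95% critical value marked a library as far from the others. Of 332 such groups 14 (4.22%) held such a library, where chance gives about 5%. HFD 2 was high for Pmaip1 (ratio 0.713), Nrp1 (0.748), Bhlhe40 (0.843) and Rptor (0.669, a gene not called with span taken out), and the HFD median of Bhlhe40 was 6.40 CPM against 12.99 in that library. HFD 1 was high for Cd74 (0.676) and for the summed dendritic cell markers (0.757), and low for Tsc22d3 (0.684). HFD 4 was low for Smpdl3b (0.694) and for the number of genes with 1 to 9 counts (0.770), 3856 against 5938 to 6561 in the other libraries. Among ND libraries, ND 3 was high for Tcf7 (0.810), ND 1 low for Tsc22d3 (0.660), ND 2 low for Rsrp1 (0.694), ND 4 low for Axin2 (0.684) and ND 5 low for F2r (0.693).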

How the results depend on the processing

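The count of 467 called genes (242 higher, 225 lower) was 741 (398, 343) with DESeq2, 734 (387, 347) with no filter on low counts, 199 (90, 109) with no library set factor, 187 (90, 97) within set 2, 5 (2, 3) within set 1, 271 (152, 119) with the erythroid covariate, 20 (8, 12) with the B cell covariate and 138 (52, 86) with the long minus short span covariate. Without HFD 1 and HFD 4 it was 670, with 393 higher. Leaving out 1 library gave 260 to 672 (118 to 374 higher, 127 to 298 lower), the highest without HFD 1. The sum of B cell markers is nearly Ighm alone, so that fit adjusts Ighm for itself. Why the count moved in any of these settings, that with the B cell covariate included, was not tested. Other normalizations, limma-voom, the stricter filter, the myeloid covariate, the gene exclusions and the span trend stayed within 1.5 times for the total. Same-numbered libraries deviated from their diet means with correlations of -0.03 to 0.25, and 3 of 6 correlated best with their own number. For deviations from diet and set means the correlations were -0.05 to 0.13, and 2 of 6 did so. These values do not settle whether the numbers mark pairs, and the main fit did not take them as pairs. A replicate block gave 598 calls (326, 272) that held 446 of the 467. The interaction count of 0 was 4 with DESeq2, 11 without the filter and 0 to 1 without 1 library. Of 140 called genes followed through every alternative, 81 were called in all 12 fits without 1 library, 88 with the erythroid covariate and 8 with the B cell covariate. Signs turned for Ldhb (0.0043), Ighm (-0.0078), Odc1 (-0.026) and Gpx4 (0.0017) with the B cell covariate, Hbb-bs (-0.31) with the erythroid one, Cd8a with the myeloid one (0.0033), span taken out (0.028), the span covariate (0.0094) and without ND 6 (0.0013), Cd8b1 within set 1 (-0.025), and Gpx4 within set 2 (0.031), without HFD 1 and HFD 4 (0.0032), with span taken out (0.029) and without 1 library (-0.037 to 0.015). Counting depth limits low genes: under 2 CPM 9 of 1949 were called.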

Other observations

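Over 8627 genes of at least 10 CPM, the median SD of log2 CPM between libraries was 0.106 in ND and 0.126 in HFD, 0.116 without HFD 4 and 0.108 without HFD 1 and HFD 4. HFD 2 lay above every ND library for 220 of the 242 genes called higher and was the highest HFD library for 94 of them. The other HFD libraries lay above every ND library for 162 to 183. Of the 225 genes called lower, HFD 4 was the lowest HFD library for 70. By level, genes of 200 CPM and over were called higher in 5.39% and lower in 1.32%, and genes of 10 to 50 CPM in 1.20% and 2.55%.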
